A study of Mus musculus with 7 samples.

Results

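Milk protein and mammary gland genes were examined as a set of 10 genes among the 55487 in the deposited table. They are Csn1s1, Csn2 and Csn3, which encode caseins, Lalba, Wap, Wfdc18 and Ltf, which encode whey or secreted proteins, Elf5 and Krt5, which mark states of the mammary epithelium, and Smim22. They were listed by symbol and were chosen by their TPM in these libraries, with earlier results known, to ask whether the 1 library of tumours given control vesicles holds RNA of normal mammary tissue or of secretory differentiation. The values of that library are therefore given as a description with no test.

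The tumours grew in mammary fat pads of wild-type BALB/c mice from 4T1-12b(luc) cells, a 4T1 mouse mammary carcinoma line that carries luciferase. Once a tumour measured about 150 mm3, it was injected 6 times with 50 µl on alternate days, and all samples carry the label day 12. The TIS sEV group (3 libraries) received small extracellular vesicles of 4T1 cells treated with 100 ng/ml nocodazole for 72 h and then released for 72 h, a state the series calls therapy-induced senescence. The Cont sEV group (1 library) received vesicles of DMSO-treated 4T1 cells, and the saline group (3 libraries) received saline. The labels number the replicates without saying that they are separate animals, so the p-values cover the spread among these libraries alone, and that spread could be technical. The labels used here do not state age or sex, and the fat pad of the host can itself hold mammary gland. Assigning the abbreviated vesicle columns to Cont sEV and TIS sEV is a reading of the labels, and everything said of either vesicle group rests on it.

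Values are TPM, a length-corrected measure of transcript abundance that can be compared between genes. Each library summed to 1000000 TPM, and its depth is unknown, so no counting error can be given and values well under 1 TPM may rest on very few reads. All 7 libraries held keratins of luminal epithelium at high levels, with Krt8 at 218 to 1716 TPM and Krt18 at 257 to 2118 TPM. TIS sEV replicate 2 stood apart, with 28.6% of its TPM on nuclear protein-coding genes against 56.8% to 74.7% in the other 6 libraries, and with 22.9% on nuclear ribosomal RNA genes against 0.807% to 2.40%. For the 10 genes, ratios and differences that rest on that library are given below with and without it. It also holds the low end of many ranges given for TIS sEV.

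In the mouse mammary gland, prolactin acts through the JAK2 kinase and the transcription factors STAT5A and STAT5B to switch on milk protein genes in luminal alveolar cells. The ETS-family factor Elf5 is needed for this alveolar programme. Caseins form the micelles that carry calcium phosphate in milk, while Wap and Lalba are whey proteins that appear later in pregnancy than the first caseins. In an intact gland these secretory cells lie on a basal myoepithelial layer that expresses Krt5 and Krt14, surrounded by adipocytes.

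The promoters of the milk genes are shown because their levels in the Cont sEV library were far apart, at 17.3 TPM for Csn2, 5.44 TPM for Lalba, 1.11 TPM for Csn1s1 and 0.150 TPM for Wap. RefSeq windows on GRCm38.p6, 250 bases before to 50 bases after the annotated start, were found for 9 of the 10 members, in 11 windows, and Csn3 had none. Each is printed 5′ to 3′ on the strand of the gene, in lower case, with matches to the STAT5 motif in capitals.
Csn2, chr5:87699376-87699675, minus strand: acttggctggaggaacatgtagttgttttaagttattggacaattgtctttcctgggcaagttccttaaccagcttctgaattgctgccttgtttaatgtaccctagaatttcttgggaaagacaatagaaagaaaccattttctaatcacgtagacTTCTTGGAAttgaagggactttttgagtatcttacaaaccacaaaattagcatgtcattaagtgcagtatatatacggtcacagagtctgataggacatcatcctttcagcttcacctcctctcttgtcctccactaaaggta
Csn1s1, chr5:87665958-87666257, plus strand: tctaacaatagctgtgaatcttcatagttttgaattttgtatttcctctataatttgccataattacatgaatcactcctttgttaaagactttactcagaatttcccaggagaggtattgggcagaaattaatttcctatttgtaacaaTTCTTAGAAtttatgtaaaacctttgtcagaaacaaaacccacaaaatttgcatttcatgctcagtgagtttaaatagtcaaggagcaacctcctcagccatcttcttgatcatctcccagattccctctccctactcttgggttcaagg
Lalba, chr15:98482634-98482933, minus strand: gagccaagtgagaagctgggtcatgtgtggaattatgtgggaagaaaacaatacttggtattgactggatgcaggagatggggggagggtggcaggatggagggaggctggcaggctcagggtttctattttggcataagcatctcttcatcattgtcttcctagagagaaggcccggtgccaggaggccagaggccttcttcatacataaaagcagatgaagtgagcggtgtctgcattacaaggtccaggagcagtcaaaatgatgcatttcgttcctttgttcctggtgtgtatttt
Wap, chr11:6638600-6638899, minus strand: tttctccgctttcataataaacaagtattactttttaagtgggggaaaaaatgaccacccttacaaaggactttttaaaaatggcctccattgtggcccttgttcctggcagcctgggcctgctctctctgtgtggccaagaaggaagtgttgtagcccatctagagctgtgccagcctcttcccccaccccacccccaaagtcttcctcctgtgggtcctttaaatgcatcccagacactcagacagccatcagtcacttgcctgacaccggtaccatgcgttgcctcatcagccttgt
The STAT5 motif was searched as TTCNNNGAA, which reads the same on both strands. It occurred in 2 of the 11 windows, with its first base at position -93 from the start of Csn2 and at position -100 from that of Csn1s1. Of all 32851 windows of that length, 8.3% held it. The string GGAAGGA, which is longer than the GGAA core of ETS sites, was searched on both strands. It was found in 0 of the 11 windows and in 11.4% of all windows. GGAA alone was not searched for, and each of the windows printed above holds it or its reverse complement. A match describes letters in these windows only.

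All 10 members were at their highest in the Cont sEV library, as the plot of the 10 genes by library shows. Together they summed to 109 TPM there, against 11.7, 13.1 and 8.84 TPM in TIS sEV tumours and 6.06, 2.62 and 4.70 TPM in saline tumours. Of the 18618 genes above 0 TPM in the Cont sEV library, 13.8% were above all other 6 libraries. In bulk tissue, more cells of a type and more RNA per cell cannot be told apart. With 1 Cont sEV library there is no spread for that group, so the order of its members by level has no replicate check.

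**Figure D1:**
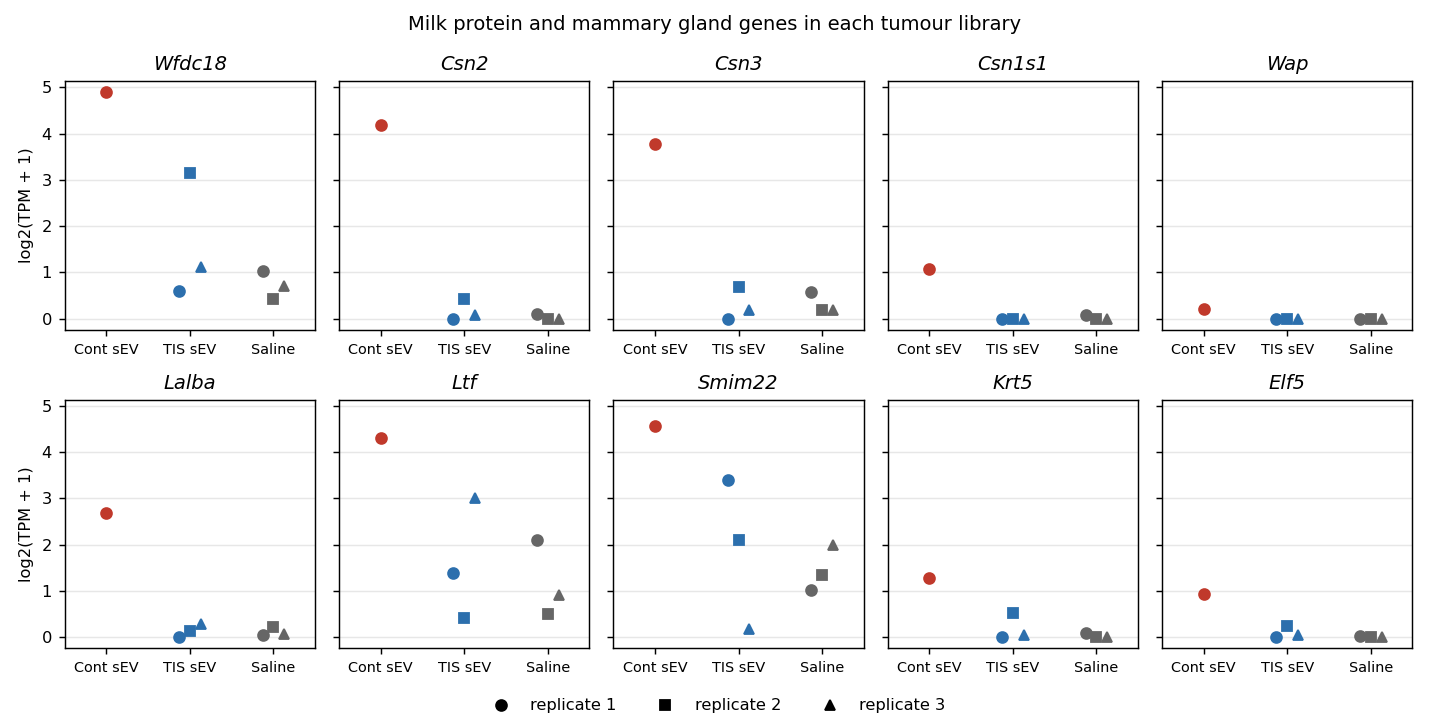
Level of each of the 10 genes on the log2(TPM + 1) scale, with 1 point per library and the replicate number given by the point's shape. The single Cont sEV point lies above all 6 other points in each panel, and TIS sEV replicate 2 is the next highest for Wfdc18, Csn2, Csn3, Krt5 and Elf5.

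On the log2(TPM + 1) scale, the caseins Csn2 and Csn3 were the members furthest above the other libraries (3.77 and 3.11 over the highest of them). Csn2, which encodes beta-casein (chromosome 5, 87692624 to 87699630, GRCm38), was at 17.3 TPM in the Cont sEV library, against 0, 0.345 and 0.0491 TPM in TIS sEV tumours and 0.0717, 0 and 0 TPM in saline tumours. Csn3, which encodes kappa-casein, the casein that stabilises the micelle surface (chromosome 5, 87925579 to 87932665), was at 12.8 TPM, against 0, 0.598 and 0.132 TPM with TIS sEV and 0.500, 0.144 and 0.132 TPM with saline. Both were high in 1 library and under 1 TPM in the other 6. Csn1s1, which encodes alpha-S1-casein (chromosome 5, 87666208 to 87682578), was at 1.11 TPM with Cont sEV, was listed at 0 in all 3 TIS sEV libraries and reached 0.0490 TPM in saline replicate 1 alone. The 3 caseins were thus at unequal levels in the Cont sEV library, where Csn2 was 1.36 times Csn3 and 15.6 times Csn1s1.

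The casein genes are neighbours on chromosome 5, and their level was not shared by the genes between and around them. Csn1s2a, which encodes an alpha-S2-casein and lies between Csn2 and Csn3, was at 0.565 TPM in the Cont sEV library, against 0, 0.436 and 0 TPM with TIS sEV and 0 in the 3 saline libraries. The related Csn1s2b was listed at 0 in every library. So were Odam and Prr27, which lie between Csn1s2b and Csn3, and Sult1b1, Sult1d1 and Sult1e1, sulfotransferase genes on the other side of Csn1s1.

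The whey protein genes divided. Lalba, which encodes alpha-lactalbumin, the partner of galactosyltransferase in lactose synthesis (chromosome 15, 98480400 to 98482721), was at 5.44 TPM in the Cont sEV library, against 0, 0.0910 and 0.226 TPM in TIS sEV tumours and 0.0328, 0.158 and 0.0455 TPM in saline tumours. Wap, which encodes whey acidic protein (chromosome 11, 6635482 to 6638637), was at 0.150 TPM with Cont sEV and was listed at 0 in the other 6 libraries. Csn2 was 3.18 times Lalba and 116 times Wap in the Cont sEV library. Wap is among the most abundant mRNAs of lactating mouse glands, and here it stayed under 1 TPM in every library.

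Wfdc18 encodes a small secreted protein with a WAP domain, known from mouse mammary gland as WDNM1 (chromosome 11, 83709015 to 83711348). It was the member with the highest level in the Cont sEV library, at 28.7 TPM, against 0.505, 7.84 and 1.16 TPM with TIS sEV and 1.03, 0.347 and 0.635 TPM with saline. Ltf encodes lactoferrin, an iron-binding protein of milk that neutrophils also store in their granules (chromosome 9, 111019271 to 111042767). It was at 18.8 TPM with Cont sEV, against 1.60, 0.337 and 7.08 TPM with TIS sEV and 3.27, 0.414 and 0.893 TPM with saline. Unlike the caseins, Wfdc18 and Ltf were above 1 TPM in some libraries of both other groups.

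The remaining members mark cell states rather than milk. Elf5 (chromosome 2, 103411688 to 103450989) was at 0.912 TPM in the Cont sEV library, against 0, 0.185 and 0.0395 TPM with TIS sEV and 0.00940, 0 and 0 TPM with saline. Krt5, a keratin of basal epithelial cells (chromosome 15, 101707070 to 101712898), was at 1.41 TPM, against 0, 0.428 and 0.0267 TPM with TIS sEV and 0.0666, 0 and 0 TPM with saline. Both were low everywhere, and their values outside the Cont sEV library came mostly from TIS sEV replicate 2. Smim22, a small integral membrane protein (chromosome 16, 5007288 to 5008309), was at 22.8 TPM with Cont sEV, against 9.60, 3.30 and 0.128 TPM with TIS sEV and 1.03, 1.55 and 2.999 TPM with saline. It was the member present at 1 TPM or more in most libraries, 6 of 7.

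Set against the highest of the other 6 libraries, the excess in the Cont sEV library fell into a high and a low range. The ratio of TPM was 50.2 for Csn2, 24.1 for Lalba, 22.6 for Csn1s1 and 21.3 for Csn3. It was 4.92 for Elf5, 3.66 for Wfdc18, 3.28 for Krt5, 2.65 for Ltf and 2.37 for Smim22, and no ratio is given for Wap, whose other libraries are at 0. On the log2(TPM + 1) scale, 7 of the 8 members with at least 1 TPM in the Cont sEV library were at least 2-fold above the highest other library. Of all 11378 genes at that level, 63 met the same condition (0.554%). Csn1s1 lay just inside that limit at a log2 difference of 1.01, and Krt5 lay just outside it at 0.75. Since the library was the reason for listing the genes, nothing is read from this count.

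Several of these ratios rest on TIS sEV replicate 2, the library poor in protein-coding RNA. Without it, the ratio to the highest other library was 242 for Csn2, 25.5 for Csn3, 24.7 for Wfdc18, 23.1 for Elf5 and 21.1 for Krt5. For Csn2, Elf5 and Krt5 the highest other values were then 0.0717, 0.0395 and 0.0666 TPM, so these ratios may rest on very few reads. The ratios of Lalba (24.1), Csn1s1 (22.6), Ltf (2.65) and Smim22 (2.37) did not involve TIS sEV replicate 2. Dividing TPM by median-of-ratios size factors, which raises the values of TIS sEV replicate 2, gave ratios of 18.8 for Csn2, 7.99 for Csn3, 1.84 for Elf5, 1.37 for Wfdc18 and 1.23 for Krt5. Rescaling the nuclear protein-coding genes alone gave 19.4 for Csn2, 8.27 for Csn3, 1.91 for Elf5, 1.42 for Wfdc18 and 1.27 for Krt5. All of these 5 ratios were thus smaller by more than 2-fold under both scalings. With size factors the ratio was 23.3 for Csn1s1, 22.4 for Lalba, 2.68 for Ltf and 2.58 for Smim22. All 10 members stayed above the highest other library in each of the 10 alternatives. Only the rescalings of the libraries could have changed this order. Leaving out another library or changing the pseudocount could not.

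**Figure D2:**
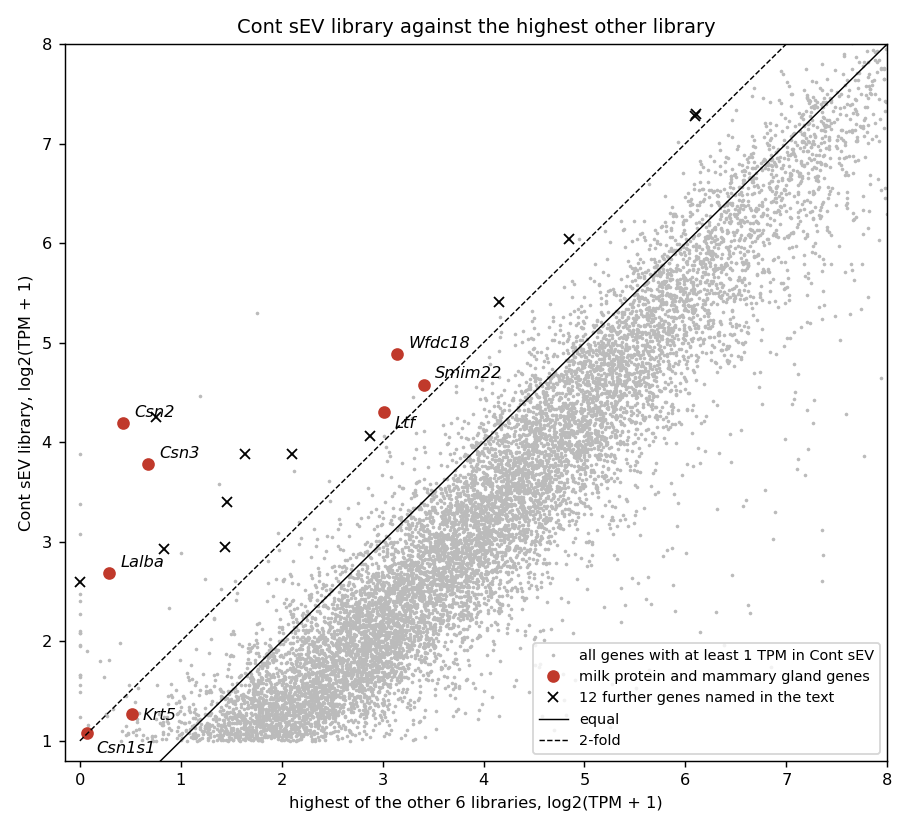
Each gene with at least 1 TPM in the Cont sEV library, with its log2(TPM + 1) there (vertical) against its highest value in the other 6 libraries (horizontal). The solid line marks equal values and the dashed line a 2-fold difference on this scale, and both axes end at 8. Csn2, Csn3 and Lalba lie far above the dashed line and Krt5 (0.75) lies just under it.

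The genes most like the members in this respect were taken by rank, as those with at least 5 TPM in the Cont sEV library and the largest log2 difference over the highest other library. Among 7112 genes ranked, Csn2 was at place 2, Csn3 at 7, Lalba at 10, Wfdc18 at 18, Ltf at 22 and Smim22 at 28. The first other gene with a standard symbol was Fam25c, at 18.1 TPM in the Cont sEV library, against 0 to 0.463 TPM with TIS sEV and 0.118 to 0.686 TPM with saline. Cited1, a transcriptional co-regulator with a known role in mouse mammary duct growth, was at 13.7 TPM, against 0.135, 3.28 and 0.0371 TPM with TIS sEV and 0.590, 0 and 0.149 TPM with saline. Like Wfdc18, it was next highest in TIS sEV replicate 2.

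A pair of the other named genes, Sprr2a2 and Sprr2a3, encode small proline-rich proteins of squamous epithelium, and their near-identical copies make the split of reads between them uncertain. Sprr2a2 was at 9.55 TPM and Sprr2a3 at 6.61 TPM with Cont sEV, against at most 1.75 and 0.787 TPM in the other libraries. A separate set of named genes belongs to DNA replication and repair. Mcm3, a subunit of the replicative helicase, was at 154 TPM with Cont sEV, against 13.9 to 67.1 TPM with TIS sEV and 30.7 to 67.2 TPM with saline. Exo1, an exonuclease of DNA repair, was at 15.7 TPM against at most 6.33 TPM, and Ube2t, a ubiquitin-conjugating enzyme of crosslink repair, at 64.9 TPM against at most 27.9 TPM. The matrix protease Mmp9 was at 156 TPM, against 11.8 to 67.7 TPM with TIS sEV and 25.6 to 32.9 TPM with saline. The other 4 names by this rule were Cryba4, Lockd, the microRNA gene Mir763 and the 5S ribosomal RNA gene n-R5s118. By this rule the named genes included some outside the mammary programme. They were picked for their excess in this library and no other library was ranked this way, so nothing more is read from them.

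Other milk and secretory genes were mostly close to 0. Of 20 such genes, 14 were under 1 TPM in every library, and 7 were at their highest in the Cont sEV library, beside 13.8% of all genes above 0 TPM there. All of these 7 were under 1 TPM in that library, where the 2-fold condition on log2(TPM + 1) cannot be met. Of the 5 genes at 1 TPM or more in it, 0 were above all other 6 libraries. Cel, a lipase of milk and pancreas, was at 0.864 TPM with Cont sEV, against 0 to 0.0287 TPM with TIS sEV and 0 to 0.0306 TPM with saline, a ratio of 28.3 to the highest other library. Glycam1, a mucin-like milk protein, was at 0.691 TPM, against 0, 0.359 and 0 TPM with TIS sEV and at most 0.0602 TPM with saline. The abundant genes of the list, which many cells other than secretory ones express, were not highest in that library. Xdh, an enzyme that also coats milk fat globules, was at 30.6 TPM with Cont sEV, against 14.9 to 81.7 TPM with TIS sEV and 35.5 to 54.2 TPM with saline. Without TIS sEV replicate 2, which was at 14.9 TPM, the Cont sEV library was the lowest for Xdh. Mfge8, a milk fat globule protein, was at 102 TPM, against 7.57 to 106 TPM with TIS sEV and 93.1 to 190 TPM with saline.

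The regulators upstream of milk genes were mostly not at their highest in the Cont sEV library. Stat5a was at 4.85 TPM there, against 2.42 to 7.19 TPM with TIS sEV and 6.28 to 8.80 TPM with saline, and Jak2 was at 15.2 TPM, against 8.78 to 31.4 TPM with TIS sEV and 17.0 to 50.3 TPM with saline. Among the more abundant regulators, the growth factor Areg was at 39.7 TPM, against 2.29 to 62.6 TPM with TIS sEV and 45.3 to 61.9 TPM with saline, and Cebpb, a transcription factor needed for alveolar development, was at 86.5 TPM, against 21.9 to 169 TPM with TIS sEV and 90.5 to 129 TPM with saline. The low ends with TIS sEV for all these genes came from TIS sEV replicate 2. Without it, the lowest TIS sEV values were 6.05 TPM for Stat5a, 18.1 TPM for Jak2, 33.9 TPM for Areg and 90.7 TPM for Cebpb. The Cont sEV library was then the lowest for Stat5a, Jak2 and Cebpb, but not for Areg. Of 19 regulators, 1 was highest in the Cont sEV library, beside 13.8% of all genes above 0 TPM there. This was the prolactin receptor Prlr, at 0.292 TPM, against 0 to 0.00556 TPM with TIS sEV and 0 to 0.0256 TPM with saline. The steroid receptors that mark hormone-sensing luminal cells were low, with Esr1 at 0.558 TPM in the Cont sEV library, against 0.322 to 0.691 TPM with TIS sEV and 0.556 to 0.708 TPM with saline. Pgr was at 0.0121 TPM or less in all 7 libraries.

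The luminal and basal layers of the gland gave the following values. Among 18 luminal genes, 3 were highest in the Cont sEV library, by small margins, and the list summed to 3235 TPM there, against 671 to 4290 TPM with TIS sEV and 2851 to 5047 TPM with saline. Of 13 basal and myoepithelial genes, 3 were highest with Cont sEV, and the list summed to 84.4 TPM, against 78.1 to 118 TPM with TIS sEV and 45.5 to 78.6 TPM with saline. Over all genes above 0 TPM in the Cont sEV library the share was 13.8%, so nothing is read from either count. Krt17 was at 7.28 TPM in the Cont sEV library, against 0.176 to 4.64 TPM with TIS sEV and 0.101 to 2.55 TPM with saline. Krt14, the usual partner of Krt5, was at 28.4 TPM with Cont sEV, against 67.7, 21.4 and 3.27 TPM with TIS sEV and 7.88, 19.4 and 11.3 TPM with saline, so it did not follow Krt5. Tagln, a contractile protein also made by fibroblasts and smooth muscle, was at 33.7 TPM with Cont sEV, against 30.7 to 50.4 TPM with TIS sEV and 14.7 to 48.7 TPM with saline. Acta2, the smooth muscle actin of myoepithelial cells, fibroblasts and vessel walls, was at 10.3 TPM with Cont sEV, against 11.7, 15.6 and 20.9 TPM with TIS sEV and 17.3, 7.26 and 8.71 TPM with saline. Myh11, a smooth muscle myosin, was at 0.112 TPM with Cont sEV and Trp63, a transcription factor of basal cells, at 0.163 TPM, and neither was highest there. Oxtr, the oxytocin receptor, was highest with Cont sEV, but at 0.0595 TPM, which was 2.28 times the highest other library. The part of any of these cells in the milk gene values was not tested.

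Summed over the list, adipocyte genes, a sign of fat pad, were highest in TIS sEV replicate 2, though not every gene peaked there. The 12 genes summed to 34.2 TPM with Cont sEV, against 14.5, 79.4 and 44.6 TPM with TIS sEV and 18.5, 24.6 and 32.4 TPM with saline. In the Cont sEV library 0 of the 12 were highest, beside 13.8% of all genes above 0 TPM there. Adipoq, the adipocyte hormone adiponectin, was at 0.447 TPM with Cont sEV, against 0, 2.52 and 0.0482 TPM with TIS sEV and 0.0173, 0.0209 and 0.0960 TPM with saline. Cfd, a complement protease made by fat cells, was at 7.46 TPM, against 0.176, 37.9 and 0.540 TPM with TIS sEV and 0.209, 0.698 and 2.02 TPM with saline. Fabp4, a fatty acid carrier that endothelial cells and macrophages also make, was at 19.5 TPM with Cont sEV. It was at 8.95, 29.9 and 38.4 TPM with TIS sEV and 13.5 to 21.6 TPM with saline. Lipe was at 4.07 TPM with Cont sEV, against 4.75, 1.79 and 4.43 TPM with TIS sEV and 3.98 to 6.80 TPM with saline. TIS sEV replicate 2 was thus the lowest for Lipe. In TIS sEV replicate 2, Cfd held 37.9 of the summed 79.4 TPM. That library, with the highest summed adipocyte level, was also the one with the next highest Wfdc18, Csn2, Csn3, Krt5 and Elf5. The Cont sEV library came next to TIS sEV replicate 2 for Adipoq and Cfd. Whether fat pad had a part in either library's milk gene values was not tested.

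Skin and neutrophils were the other cell sources considered. Krt1, Dsc3 and Dsg1a, genes of differentiated epidermis, were listed at 0 in all 7 libraries, and 10 of 14 skin genes were under 1 TPM everywhere. Other genes of the list were present. Krt10 was at 3.43 TPM with Cont sEV, against 1.29 to 5.62 TPM with TIS sEV and 4.65 to 6.07 TPM with saline. Sbsn was at 0.820 TPM and Dmkn at 0.375 TPM with Cont sEV, and they reached 2.83 and 1.78 TPM in TIS sEV replicate 1. The skin list still summed highest in the Cont sEV library, at 73.95 TPM, of which Lgals7 held 69.2 TPM. Neutrophil granule genes summed lowest there, at 737 TPM including Ltf, against 1034 to 3051 TPM with TIS sEV and 1431 to 7144 TPM with saline. S100a8 was at 122 TPM with Cont sEV, against 302 to 468 TPM with TIS sEV and 301 to 1680 TPM with saline, and Lcn2, a siderophore-binding protein of granules and epithelium, was at 66.6 TPM, against 49.8 to 1341 TPM with TIS sEV and 210 to 1030 TPM with saline. Ltf and Mmp9 were the only members of that list of 12 at their highest in the Cont sEV library, beside 13.8% of all genes above 0 TPM there. In TIS sEV replicate 3, where Ltf was next highest at 7.08 TPM, Lcn2, Ngp (10.7 TPM) and Camp (5.03 TPM) were at their highest of the 7 libraries. The remaining granule genes peaked elsewhere. S100a8, S100a9, Retnlg and Mpo peaked in saline replicate 1, Mmp8 and Cd177 in saline replicate 2 and Elane in TIS sEV replicate 2. Whether neutrophils had a part in the Ltf values of any library was not tested.

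**Figure D3:**
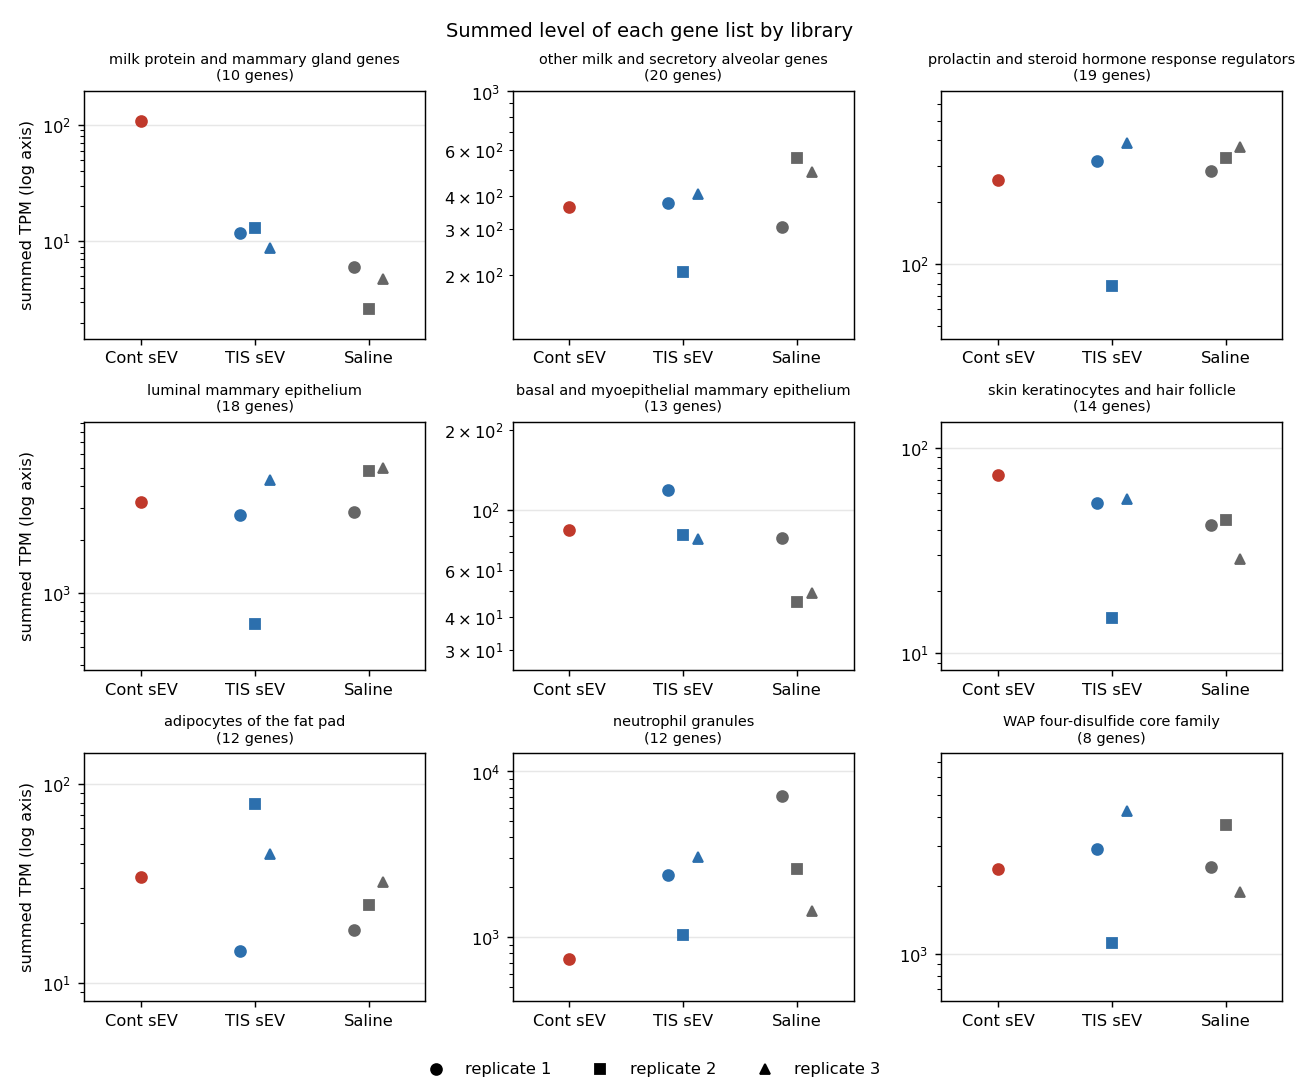
Summed TPM (log axis, with its own range in each panel) of the 10 milk protein and mammary gland genes and of 8 other gene lists, with 1 point per library and the replicate number given by the point's shape. The Cont sEV library stands alone for the 10 genes (109 TPM), lies within the range of the others for luminal genes and adipocytes, and is the lowest for neutrophil granules.

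Wfdc18 and Wap belong to the family of WAP four-disulfide core proteins, small secreted proteins of which some inhibit proteases. Slpi and Wfdc2, the most abundant, were at 796 and 1412 TPM with Cont sEV, against 232 to 2397 TPM and 155 to 1547 TPM with TIS sEV and 494 to 2386 TPM and 880 to 1238 TPM with saline. Wfdc17 was at 143 TPM with Cont sEV, against 274, 712 and 270 TPM with TIS sEV and 398, 391 and 119 TPM with saline. Of the 8 other family members, 3 (Wfdc3, Wfdc12 and Wfdc15b) were highest in the Cont sEV library, beside 13.8% of all genes above 0 TPM there. Wfdc3 was at 0.379 TPM in it and Wfdc12 at 1.00 TPM, which were 3.72 and 3.05 times the highest other library, against 3.66 for Wfdc18. Wfdc15b was at 0.0805 TPM and was listed at 0 in the other 6 libraries.

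The comparison of TIS sEV with saline was not the one that chose the members, and it was tested, although the members were listed with its results known. The fit took only genes that reached 1 TPM in 3 or more libraries. Wfdc18, Ltf and Smim22 did so, and the other 7 members did not. These 3 each reached that level in at least 3 libraries without counting the Cont sEV library. In limma on log2(TPM + 1), 0 of the 3 passed an adjusted p of 0.05, and 0 had an unadjusted p under 0.05. Over all 12058 genes tested, 62 passed (0.514%), 42 higher (0.348%) and 20 lower (0.166%). The median gene differed by -0.62 on the log2 scale, so a difference near 0 lies above most genes in this fit. With 1 library left out, this median ranged from -0.90 (without TIS sEV replicate 1) to -0.19 (without TIS sEV replicate 2). With size factors it was -0.04.

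Wfdc18 averaged 3.17 ± 4.06 TPM with TIS sEV and 0.672 ± 0.345 TPM with saline (SD, n = 3 each), which gave a log2 difference of 0.89 with an SE of 0.50 (adjusted p = 0.476 in limma). Its difference was 0.13 when TIS sEV replicate 2 was left out and 1.41 when TIS sEV replicate 1 was. Ltf averaged 3.00 ± 3.58 TPM with TIS sEV and 1.53 ± 1.53 TPM with saline (SD, n = 3 each), which gave a log2 difference of 0.43 with an SE of 0.51 (adjusted p = 0.612 in limma). The difference of Ltf turned to -0.27 without TIS sEV replicate 3, and was 0.10 without saline replicate 2, 0.89 without saline replicate 1 and 1.02 without TIS sEV replicate 2. Smim22 averaged 4.34 ± 4.82 TPM with TIS sEV and 1.86 ± 1.02 TPM with saline (SD, n = 3 each), which gave a log2 difference of 0.44 with an SE of 0.56 (adjusted p = 0.632 in limma), and turned to -0.32 without TIS sEV replicate 1. It was 0.22 without saline replicate 1, 0.71 without saline replicate 3 and 1.30 without TIS sEV replicate 3. For all 10 members the TIS sEV and saline libraries overlapped. Of all tested genes, 14.3% had groups that did not, a share that applies only to the 3 tested members. The other 7 were low or at 0 in both groups, which favours overlap, so nothing is read from this.

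The 3 TIS sEV libraries each held a different leading member. Smim22 made up 82.0% of the summed TPM of the 10 genes in TIS sEV replicate 1, Wfdc18 made up 59.7% in replicate 2 and Ltf made up 80.1% in replicate 3. In the saline libraries the leading member was Ltf in replicate 1 (54.0%) and Smim22 in replicates 2 (59.4%) and 3 (63.8%). In the Cont sEV library no member held more than the 26.2% of Wfdc18. The summed level was higher in each TIS sEV library than in any saline library, but no single member showed that separation. Of all tested genes, 14.3% had groups that did not overlap. The sum was not tested and its genes were listed with these data known, so nothing is read from it.

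**Figure D4:**
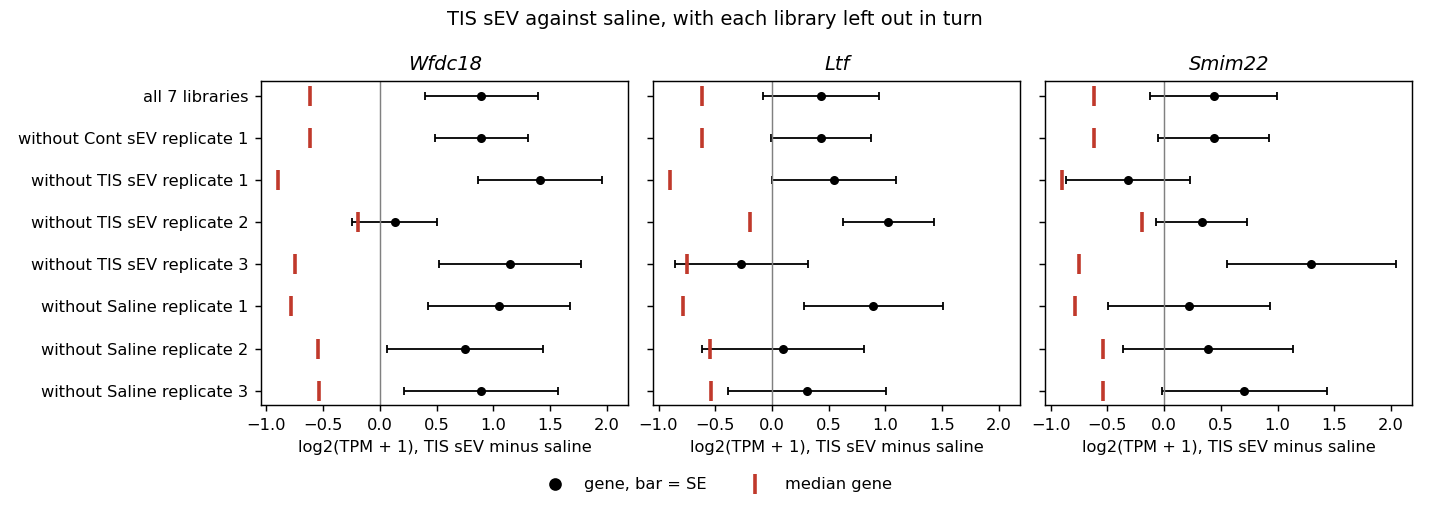
Log2 difference of TIS sEV minus saline with its SE for Wfdc18, Ltf and Smim22 in limma, with all 7 libraries and with each library left out in turn, beside the difference of the median gene in the same fit. The differences range from 0.13 (without TIS sEV replicate 2) to 1.41 (without TIS sEV replicate 1) for Wfdc18, from -0.27 (without TIS sEV replicate 3) to 1.02 (without TIS sEV replicate 2) for Ltf and from -0.32 (without TIS sEV replicate 1) to 1.30 (without TIS sEV replicate 3) for Smim22.

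The profiles of these 3 genes over the 7 libraries had different nearest neighbours, given as a description. The tested gene closest to Wfdc18 by Pearson correlation of log2(TPM + 1) over 7 libraries was Ankhd1 (r = 0.86), followed by Atg10 (0.82) and Snord14d (0.79). For Ltf they were Gnrh1 (0.98), Hpf1 (0.92) and Atp5e (0.92), and for Smim22 they were Eaf2 (0.93), Sfn (0.90) and Krt17 (0.88). Sfn and Krt17, genes of stratified epithelium, were highest in the Cont sEV library, Sfn at 64.9 TPM, against 45.0, 16.6 and 10.5 TPM with TIS sEV and 15.1, 21.3 and 42.8 TPM with saline. Apart from Snord14d, the genes named here were highest in the Cont sEV library, so their correlations share that 1 high library. Snord14d was highest in TIS sEV replicate 2, at 154 TPM, against 20.4 TPM in the Cont sEV library. Library composition enters each of these correlations.

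The other lists did not pass in this comparison either. Among the tested members of the 8 other lists, 0 passed in limma in either direction. Their medians, as log2 differences of TIS sEV minus saline, were -0.37 for other milk and secretory genes (6 tested), -0.62 for regulators (11), -0.97 for luminal genes (14) and 0.52 for basal and myoepithelial genes (5), beside -0.62 for all genes. They were -0.03 for skin (3), 0.38 for adipocytes (3), -0.57 for neutrophil granules (9) and -0.41 for the WAP family (4). The adipocyte gene Cfd had which gave a log2 difference of 1.17 with an SE of 0.50 (adjusted p = 0.470 in limma), with TIS sEV replicate 2 at 37.9 TPM and the other 2 TIS sEV libraries under 1 TPM.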

How the data were processed

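The authors deposited 1 table of TPM values for 55487 genes and 7 libraries of total RNA from tumours. The submitters' processing notes list Salmon 1.4.0, DESeq2 1.28.0, Trim Galore 0.6.6 and FastQC 0.11.9, and the build GRCm38.p6. What each tool did, and the annotation, are not stated there. TPM keeps no read counts, so depth is unknown, and much RNA of 1 class in a library lowers the TPM of its remaining genes. The vesicle columns carry abbreviations, which were read as Cont sEV (1 column) and TIS sEV (3 columns, nocodazole).

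Symbols and coordinates came from GENCODE M21 (GRCm38), where 55227 identifiers were found with the version dropped. The 12058 genes that reached 1 TPM in 3 or more libraries were tested on log2(TPM + 1), with limma 3.58.1 (R 4.3.3). One fit held a mean for each group, with the intensity trend, 4 residual degrees of freedom and 2-sided tests. Benjamini-Hochberg adjustment ran over all tested genes, with a threshold of 0.05. For low genes this scale gives differences that are too small. The fitted prior was infinite, so the SE of a gene reflects genes of like level and not its own spread.

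The Cont sEV library was compared with the highest of the other 6 without a test. Members and lists were chosen with earlier results of these data known. Named genes were the 10 members, up to 4 genes a list by level with any that passed, the 12 genes furthest above the other libraries in the Cont sEV library and the 3 genes most correlated with each tested member. Some further list genes (Stat5a, Jak2, Krt17, Wfdc3, Wfdc12, Wfdc15b, Cel, Glycam1, Prlr, Esr1, Pgr, Oxtr, Myh11, Trp63, Adipoq, Krt1, Dsc3, Dsg1a, Camp, Ngp, Retnlg, Mpo, Mmp8, Cd177 and Elane) were named in addition, after their values were seen, as were the neighbours of the casein genes picked from a window of 300 kb. Promoter sequences are RefSeq's for GRCm38.p6. Alternatives were another pseudocount (0.1), other filters and scalings, a replicate block and leaving out each library.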

Additional observations from a re-analysis of the deposited data

How the results depend on the processing

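In TIS sEV against saline, the count of members passing was 0 with every alternative that could give it, but the filter of 5 TPM left no member to test. No filter, that is all genes above 0 in any library, also gave 0 of 10 members. At an unadjusted p under 0.05 there were 0 or 1 members in each of these fits. The count over all genes, 62, was 0 in limma with no filter, size factors, quantile normalization or protein-coding genes alone (1230, 1763, 1747 and 1714 genes at an unadjusted p under 0.05), and was 30 with the filter of 5 TPM. Leaving out 1 library gave 7 (without saline replicate 3) to 353 (without TIS sEV replicate 1), with 14 when saline replicate 2, 35 when TIS sEV replicate 3 and 105 when TIS sEV replicate 2 was the one left out. The labels do not say whether the replicate numbers pair the samples. Deviations of same-numbered TIS sEV and saline libraries correlated at -0.38, -0.0085 and 0.080 over genes. These cannot settle it, since they also carry the composition of each library. With the replicate block 14 genes and 0 members passed. Leaving out 1 library, Wfdc18 ranged from 0.13 to 1.41, Ltf from -0.27 to 1.02 and Smim22 from -0.32 to 1.30. In the Cont sEV library, 6 to 8 of 8 members met the 2-fold condition in all alternatives. The count was 6 with size factors, quantile normalization and protein-coding genes alone, and leaving out another library could not lower it. Over all genes, the 63 became 98 with a pseudocount of 0.1 and 29 of 10356 with protein-coding genes alone. The causes of these shifts were not tested. Unknown depth limits all values under about 1 TPM.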
